A study of Homo sapiens with 4 samples.

Results

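Regions of the genome that already gave accessibility reads in K562 cells before treatment, and that gained further signal with an anthracycline, were described here. K562 is an established human chronic myelogenous leukaemia line. Accessibility was measured by ATAC-seq, in which a transposase inserts sequencing adapters where DNA is not covered by nucleosomes. Cells were left untreated, or received doxorubicin (Doxo) at 10 µM, N,N-dimethyldoxorubicin (diMe-Doxo) at 10 µM or aclarubicin (Acla) at 20 µM, each for 4 h. The labels give 1 sample per group, while the deposited list of gained regions of each drug has columns for 2 libraries with the drug and 2 without. Whether these came from separate cultures is not stated, so the spread between them may be technical. A region was kept if it stood in any of the 3 lists and had at least 10 reads in each of the 2 control libraries, which left 1527 of 100205 listed regions (1.52%). These pre-open regions were selected on their control reads and on gain over the same controls. Their folds over control, their FDRs and the lists they stand in are therefore given as a description, with no test.

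In a cell, open sites are mostly promoters and enhancers, where nucleosomes are displaced by bound transcription factors and remodelling enzymes. Anthracyclines slide between the base pairs of DNA and loosen histones from it. Doxorubicin also traps topoisomerase II and leaves DNA double-strand breaks, whereas its dimethylated form and aclarubicin retain histone eviction and cause few such breaks. The series set out to separate these activities. Its lists hold gained regions only, so sites that were open before treatment and not listed as gained were not analysed here. Gene positions and sequence of GRCh37, the build of the coordinates, were not used here, so each region is named by its coordinates as listed, and no check of K562 marker genes was made.

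Before treatment the pre-open regions carried a median of 20 reads (range 10 to 246) in the first control library and 22 (10 to 288) in the second, against 1 and 1 over all listed regions. They were also wider, with a median width of 1744 bp against 766 bp, and 278 of them (18.2%) spanned at least 2500 bp, against 0.952% of all listed regions. A wider region collects more reads, so the read minimum itself favours width. Per kb, the median control level was 14.7 reads in the pre-open regions and 2.83 reads over all listed regions. The authors had called a peak in both controls at 1069 of the 1527 regions (70.0%), in 1 control at 158 (10.3%) and in neither at 300 (19.6%). Over all listed regions these shares were 5.63%, 8.42% and 85.9%. Pre-open thus stands here for the read minimum alone, and a peak call in both libraries went with it at 70.0%. The 300 regions with no control peak were narrower (median 1300 bp) and had 16.3 control reads per kb, beside 14.1 per kb at those with a peak in both. Conversely, the lists hold 5645 regions with a peak in both controls, and only 1069 of them (18.9%) reached 10 reads in each.

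The control libraries did not agree closely. Over the pre-open regions they held 41924 and 44161 reads in all, but at 437 regions (28.6%) they differed at least 2-fold, with the first library higher at 196 and the second at 241. Differences of at least 4-fold occurred at 40 regions. These counts were not made over all listed regions. In the Doxo list, however, the SD of log2 signal between the controls was 0.63 at pre-open regions and 1.41 over the whole list. The first control had at least 10 reads at 6614 listed regions, and 3999 of these (60.5%) had 1 read in the second. The second had at least 10 at 6685 regions, and 3865 of these (57.8%) had 1 read in the first. A value of 1 is the lowest in these lists and may stand for no read. Whether processing set a floor or subtracted reads is not stated, so part of this disagreement may come from it. Requiring the minimum in both libraries thus removed most regions with signal in either.

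Nearly all pre-open regions were in the Doxo list, and most were in no other. Doxo listed 1513 of the 1527 (99.1%), diMe-Doxo 178 (11.7%) and Acla 97 (6.35%). Of the 100205 regions in any list, these shares were 66.6%, 52.7% and 61.2%. Regions listed for Doxo alone numbered 1337, or 87.6% of the pre-open regions, beside 29.5% of all listed regions. Another 86 (5.63%, beside 4.40% of all listed regions) were listed for Doxo and diMe-Doxo. All 3 drugs listed 82 (5.37% beside 28.7%), and Doxo and Acla 8 (0.524% beside 4.04%). Just 7 (0.458% beside 4.97%) were listed for diMe-Doxo alone and 4 (0.262% beside 13.8%) for Acla alone. The lists of diMe-Doxo and Acla shared a further 3 (0.196% beside 14.6%). All 3 lists use the same control libraries, and a drug's signal at a region outside its list is not given, so absence from a list does not show that a drug left the region unchanged.

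The more reads a region had in the control, the fewer of the drugs listed it. Among regions whose lower control library had 1 read, 64.3% stood in the Doxo list, 53.8% in that of diMe-Doxo and 63.7% in that of Acla. At 10 to 19 reads (991 regions) the shares were 98.7%, 16.3% and 9.79%. At 20 to 49 reads (458 regions) Doxo listed 457, diMe-Doxo 16 and Acla 0. All 78 regions with 50 reads or more in each control were listed for Doxo alone. Around the minimum itself the change was gradual. At 9 reads, just outside it, 175 of 240 regions (72.9%) were listed for Doxo alone, and at 10 reads 143 of 195 (73.3%), with median log2 folds in the Doxo list of 2.41 and 2.38.

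**Figure D1:**
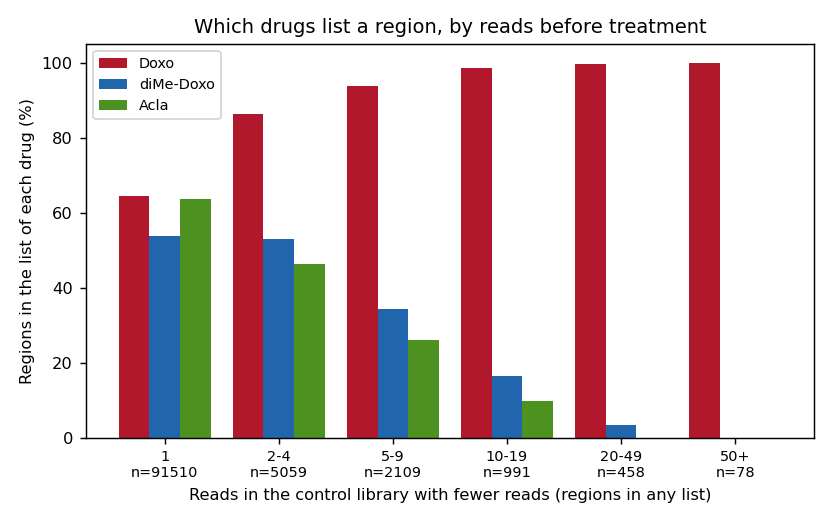
Share of listed regions (%) in the list of each drug, by the reads in the control library with fewer reads. Bars give percentages over the n regions under each group. Doxo bars reach 98.7% or more from 10 reads on, while diMe-Doxo falls from 53.8% to 0% and Acla from 63.7% to 0%.

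All lists stop at a log2 fold of 1.5, so a region needed the same fold over the controls in each. Each list has its own scale, so the signal at that limit is not compared between lists. With 10 reads in each control, that limit stood at a mean of 39.99 normalized reads in the Doxo list, 62.7 in the diMe-Doxo list and 74.9 in the Acla list. In sequenced reads this was 56.3 and 56.8 in the Doxo libraries, 140.5 and 136.3 in the diMe-Doxo libraries and 200.4 and 194.8 in the Acla libraries. A control read counted as 1.44 and 1.39 normalized reads in the Doxo list. For diMe-Doxo the factors were 2.41 and 2.03, for Acla 2.85 and 2.44. The part of these factors in the order of the 3 drugs was not tested.

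Pre-open regions rose by smaller factors than the other regions and by larger amounts. In the Doxo list their median authors' log2 fold was 2.18 (4.53-fold; quartiles 1.84 and 2.69, highest 5.07), beside 2.95 over the whole list. For diMe-Doxo the medians were 1.83 and 2.52, and for Acla 1.79 and 2.62. A log2 fold of at least 3 was reached at 225 of 1513 Doxo regions (14.9%, beside 48.4% of the list), at 1 of 178 diMe-Doxo regions and at 1 of 97 Acla regions. In normalized reads the order was the opposite. The median rise with Doxo was 132 per region, beside 24.03 over the whole list, and per kb it was 84.4 beside 34.0. With diMe-Doxo the rise per kb was 46.5 beside 24.8, and with Acla 43.5 beside 32.3. Both orders follow in part from choosing regions by their control reads.

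Within the Doxo list the fold and the rise moved apart step by step with the control reads. The median log2 fold was 2.99 at regions with 1 read in the lower control, 2.57 at 5 to 9 reads, 2.31 at 10 to 19, 2.07 at 20 to 49 and 1.89 at 50 or more. Over the same steps the median rise grew from 21.3 through 68.3, 103 and 166 to 323 normalized reads. In the diMe-Doxo list the fold went from 2.54 at 1 read to 1.88 at 10 to 19 reads and 1.63 at 20 to 49, while the rise went from 19.8 to 92.6 and 133.

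**Figure D2:**
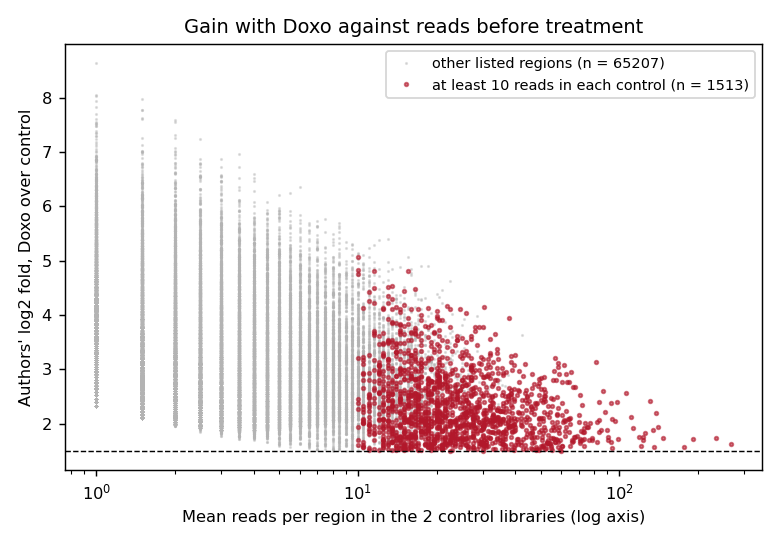
Authors' log2 fold of Doxo over control against the mean reads of the 2 control libraries (log axis), for every region of the Doxo list. Red points are the 1513 regions with at least 10 reads in each control and lie between log2 folds of 1.5 (dashed line, the limit of the list) and 5.07.

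Both treated libraries lay above both controls at each of the 1513 Doxo, 178 diMe-Doxo and 97 Acla regions, as at 100% of each whole list to 3 digits (66689 of 66720 for Doxo), a share that the selection by fold already favours. The Doxo rise was also set against the higher of the 2 controls in place of their mean. Its median was 1.91 (log2), and it was at least 1 at 1512 of 1513 regions. The selection by fold over these same controls favours that count too, and it was not made for the whole list. The treated libraries resembled each other more at pre-open regions than over the lists. The SD of log2 signal between them, pooled over regions, was 0.16 with Doxo, 0.21 with diMe-Doxo and 0.18 with Acla, beside 0.41, 0.33 and 0.36 over the whole lists. Between the controls it was also smaller at pre-open regions, 0.63 in the Doxo list beside 1.41 over that whole list. For diMe-Doxo these values were 0.585 and 1.22, and for Acla 0.63 and 1.18. Median treated reads were 228 and 248 (Doxo), 318 and 264 (diMe-Doxo) and 383 and 374 (Acla), so counting error was smallest on the treated side. The authors had called a peak in both Doxo libraries at 1389 of the 1513 regions (91.8%, beside 63.4% of the list).

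The 5 regions with the most control reads, a ranking that favours wide regions, were all listed for Doxo alone. The widest and most read, on chromosome 22 at 19509368-19514730, had 246 and 288 control reads and 1578 and 1725 reads with Doxo, an authors' log2 fold of 1.63 (FDR 0.0167). A second on that chromosome, at 22313651-22317303, had 181 and 286 control reads and 1510 and 1568 with Doxo (log2 fold 1.73). On chromosome 2 at 171569784-171573673, control reads of 206 and 178 stood beside 1204 and 1319 with Doxo (1.71). Treated libraries were far above the controls at these regions, and folds stayed close to the limit of the list. The next were on chromosome 2 at 24244068-24248567, with 161 and 193 control reads against 993 and 1088 (1.56), and on chromosome 7 at 129779440-129783183, with 133 and 162 against 923 and 1032 (1.73).

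Among regions of Doxo alone, the lowest FDRs belonged to sites near the read minimum. The region on chromosome 21 at 33688425-33690407 had 10 reads in each control and 514 and 568 with Doxo, an authors' log2 fold of 4.76 (FDR 7.25e-09), although no control peak had been called there. On chromosome 16 at 89344198-89347523 the control reads were 16 and 10 and the Doxo reads 523 and 664 (4.51). On chromosome X at 68723413-68725874 they were 12 and 16, and 463 and 527 (4.15). Their reads with Doxo were above the medians of 228 and 248 over all pre-open regions of the list.

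At 82 regions gained with all 3 drugs the median authors' log2 fold was 2.92 with Doxo, 2.10 with diMe-Doxo and 1.83 with Acla, each on the scale of its own list. These regions had a median width of 2471 bp and at most 52 and 49 control reads. A peak in both controls had been called at 49 of them (59.8%), beside 70.0% of all pre-open and 5.63% of all listed regions. The region with the highest smallest fold, on chromosome 1 at 240115810-240119134, had 17 and 13 control reads. Treated reads were 267 and 321 (Doxo), 628 and 515 (diMe-Doxo) and 999 and 842 (Acla), with log2 folds of 3.29, 2.94 and 3.12. On chromosome 7 at 119912972-119915880, 16 and 13 control reads stood beside 342 and 389, 546 and 438, and 819 and 684 reads (3.65, 2.78 and 2.88). Read numbers differ with the depth of the libraries, so they are not compared between drugs.

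The other regions that led this group had log2 folds above 2 in each list. On chromosome 7 at 126324212-126326045, with 11 and 10 control reads, log2 folds were 3.17, 2.85 and 2.46 in the same order of drugs. On chromosome 13 at 91171279-91172994, with 15 and 12, they were 2.66, 2.34 and 2.75. On chromosome 11 at 126275172-126278762, with 14 and 16, they were 3.79, 2.57 and 2.29. The widest pre-open region listed for all 3 drugs, on chromosome 4 at 100570438-100575669, had unequal controls of 50 and 18 reads, and treated reads of 616 and 732 (Doxo), 1176 and 993 (diMe-Doxo) and 891 and 800 (Acla).

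Only 14 pre-open regions were absent from the Doxo list, and each of them had a peak in both controls. Over all pre-open regions that share was 70.0%, and over all listed regions 5.63%. The 7 listed for diMe-Doxo alone had log2 folds of 1.53 to 1.78. The one with the lowest FDR, on chromosome 3 at 13649088-13651997, had 15 and 20 control reads and 293 and 276 with diMe-Doxo (1.75, FDR 0.00737). Next came chromosome 7 at 158236148-158238642, with 27 and 29 control reads against 421 and 367 (1.53), and at 45902365-45904299, with 13 and 12 against 257 and 165 (1.78). These folds lay just above the limit of the list.

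The 4 regions of Acla alone had log2 folds of 1.64 to 1.76. The lowest FDR was on chromosome 8 at 105377911-105380380, with 10 and 21 control reads and 373 and 295 with Acla (1.66, FDR 0.029). The others named were on chromosome 13 at 91784692-91786428 (10 and 12 control reads, 294 and 191 with Acla) and chromosome 7 at 117588091-117589801 (10 and 21, 374 and 284). Another 3 regions were shared by diMe-Doxo and Acla. The first, on chromosome 2 at 149886035-149888661, had 10 and 14 control reads, diMe-Doxo reads of 255 and 209 and Acla reads of 507 and 386 (log2 folds 2 and 2.43). The second, on chromosome 2 at 23464027-23466100, had 2 and 1.96, and the third, on chromosome 11 at 2335916-2338282, had 1.70 and 1.55. Of the 8 regions of Doxo and Acla, that on chromosome 1 at 27873963-27876512 rose most with Doxo. It had 11 and 26 control reads and no control peak, Doxo reads of 591 and 694 and Acla reads of 304 and 449 (4.13 and 1.59). The next by FDR were on chromosome 16 at 89686297-89688351 (2.25 and 1.57) and chromosome 18 at 3792544-3795002 (1.99 and 1.58).

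Doxo and diMe-Doxo differ by dimethylation of the sugar amine, with dose and time matched. Their reads were compared at regions in both lists, a contrast that the rule for pre-open regions did not use directly. Each region had, however, passed the fold limit in both lists, so the same treated reads also decided which regions were compared. At the 168 pre-open regions among these, Doxo was usually the higher. With edgeR's quasi-likelihood test on recovered reads, and Benjamini-Hochberg adjustment over all 33140 regions of both lists (limit 0.05), Doxo was higher at 110 of 168 and lower at 1. Over all 33140 regions 28.9% were called higher and 2.72% lower. The median log2 difference, Doxo over diMe-Doxo, was 0.86 (quartiles 0.39 and 1.55) at the pre-open regions and 0.28 over all. It was above 0 at 153 of the 168. When TMM set the scale the counts were 103 higher and 12 lower, beside 23.6% and 10.6% of all regions, and the median differences were 0.53 and -0.05. More reads per region also give the test more power, and the reads' part in the counts was not tested.

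The difference between these drugs was graded with the control reads, not confined to the minimum of 10. The share of regions in the diMe-Doxo list also fell with the control reads, and the part of that selection in the gradient was not tested. The median log2 difference was 0.25 at 30235 regions with 1 read in the lower control, of which 26.7% were called higher with Doxo. It was 0.62 at 2 to 4 reads (48.3% called), 0.77 at 5 to 9 (59.5%), 0.84 at 10 to 19 (62.7% of 153) and 1.10 at 20 to 49 (14 of 15 regions). Where Acla was listed too, 45 of 82 pre-open regions were called higher and the median was 0.70, beside 25.6% and 0.21 for all regions of that kind. Where it was not, 65 of 86 were called higher and the median was 1.02, beside 50.7% and 0.86. No such test could be made at the 1337 regions of Doxo alone, since the reads with diMe-Doxo are not given there.

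**Figure D3:**
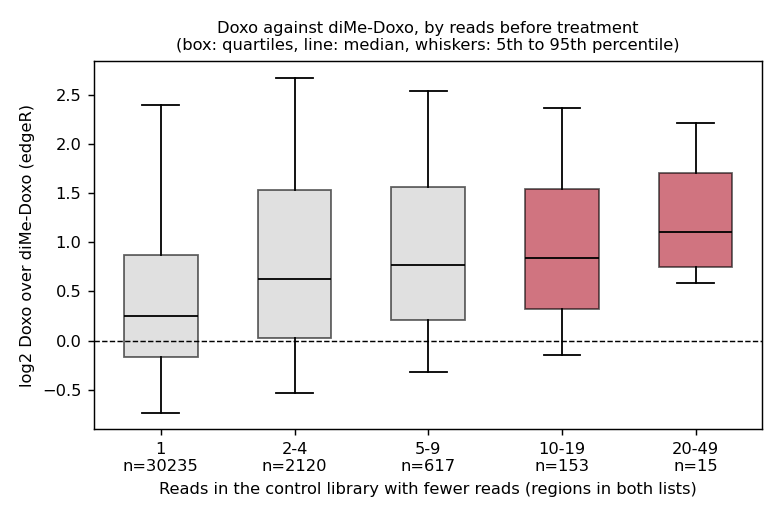
log2 difference of Doxo over diMe-Doxo (edgeR, authors' factors) at regions in both lists, by the reads in the control library with fewer reads. Boxes give quartiles with the median, whiskers the 5th and 95th percentiles, and red boxes hold the 168 pre-open regions. The median rises from 0.25 at 1 read to 1.10 at 20 to 49 reads.

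The pre-open regions with the lowest adjusted p in this comparison all lay near the read minimum. On chromosome 20 at 49223909-49226464, with 10 reads in each control, Doxo gave 658 and 681 reads and diMe-Doxo 217 and 165, a log2 difference of 3.10 (edgeR adjusted p 1.77e-43). Acla had 206 and 265 reads there, and the authors' log2 folds over control were 5.07, 1.96 and 1.76. With TMM the difference was 2.77 and the edgeR adjusted p 7.56e-13, still past the limit. Log2 differences of 2.89 on chromosome 4 at 858381-861216, 2.90 on chromosome 12 at 111799264-111801505, 2.67 on chromosome 1 at 229568524-229570963 and 2.65 on chromosome 7 at 4828875-4831434 came next. The region of chromosome 4 had Doxo reads of 626 and 666 and diMe-Doxo reads of 280 and 145, the least equal pair among these.

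Larger gains with Doxo were also present at regions listed for the doxorubicins but not Acla. On chromosome 7 at 151076817-151079350, 19 and 21 control reads stood beside Doxo reads of 608 and 655 and diMe-Doxo reads of 321 and 275 (log2 difference 2.37, edgeR adjusted p 4.36e-28). On chromosome 2 at 121100649-121104797, 21 and 31 control reads stood beside 811 and 890, and 484 and 413 (2.21). The wide region on chromosome 8 at 56362283-56367167, with 46 and 47 control reads, had 672 and 725 with Doxo and 864 and 680 with diMe-Doxo, which after the factors gave 1.14 (edgeR adjusted p 7.06e-08).

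The single region called lower with Doxo was on chromosome 1 at 2894849-2896574. It had 15 and 10 control reads, and treated reads of 95 and 69 (Doxo), 320 and 295 (diMe-Doxo) and 356 and 328 (Acla). The log2 difference of Doxo over diMe-Doxo was -0.62 (edgeR adjusted p 0.0271, and -0.95 with TMM). It was not called when the scale between the lists came from the first control library alone, nor without the second Doxo or the first diMe-Doxo library. The next regions below 0 did not pass the test with the authors' factors, among them chromosome 16 at 1138761-1141619 (-0.36, edgeR adjusted p 0.249) and chromosome 8 at 143692114-143694265 (-0.31, 0.324). Those on chromosome 11 at 67289792-67292577 and chromosome 7 at 157315680-157317185 had -0.28 and -0.25. With TMM these 4 passed, at differences of -0.58 to -0.69.

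**Figure D4:**
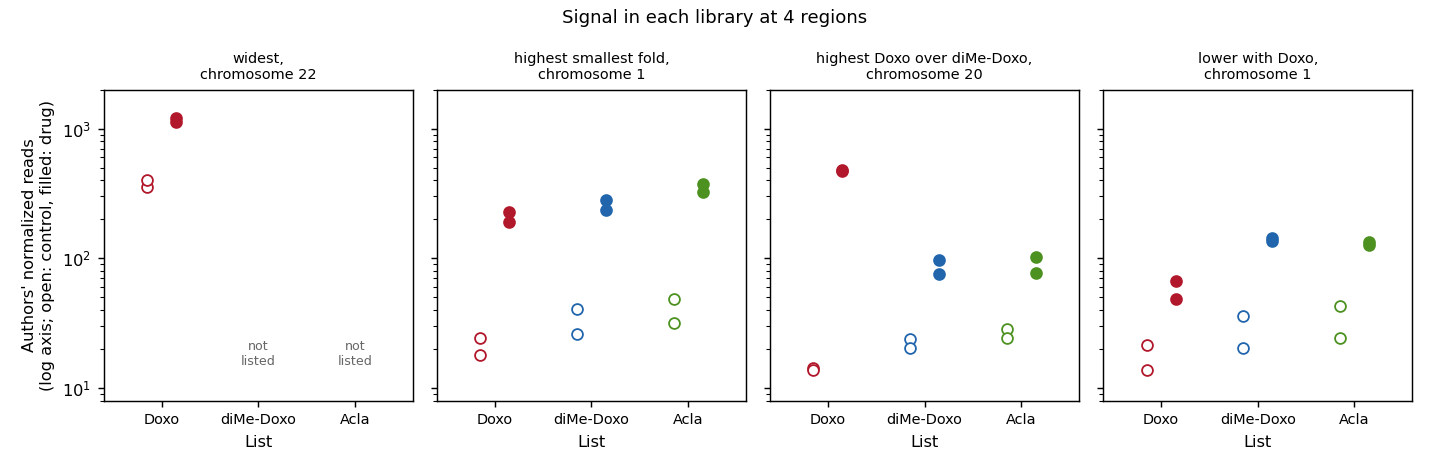
Authors' normalized reads (log axis) in each library at 4 pre-open regions, with open points for the 2 controls and filled points for the 2 treated libraries of each list. In each list that holds the region the treated points lie above the controls. The chromosome 20 region has a log2 fold of 5.07 with Doxo and 1.96 with diMe-Doxo, and the right-hand chromosome 1 region 1.71 and 2.30.

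Chromosome 22 stood apart in where the pre-open regions lay. It held 159 of them, 12.8% of its 1238 listed regions, while the share was 1.52% over the genome and ran from 0.317% on chromosome X to 2.55% on chromosome 7 among the other chromosomes with over 100 listed regions. Chromosomes 1 and 7 held the most, 231 (2.19% of the listed regions there) and 185 (2.55%). Few lay on chromosomes 13, X and 18, with 9 (0.423%), 10 (0.317%) and 12 (0.629%). On chromosome 22, 155 of the 159 lay between 19 and 24 Mb, where 41.6% of the 373 listed regions were pre-open, against 0.462% of 865 on the rest of the chromosome. The windows of 1 Mb from 19, 20, 21, 22 and 23 Mb held 46, 39, 16, 21 and 33. The last lay at 23629197-23630423 with 86 and 64 control reads. The next listed region, at 23650954-23651991, had 1 read in each control, and no pre-open region followed before 29444955-29447118.

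The 373 listed regions in that segment of chromosome 22 had a median of 11 and 14 control reads, beside 1 and 1 elsewhere, and 18.2 reads per kb beside 2.82. Pre-open regions there were narrower (median 1365 bp beside 1769 bp elsewhere) and denser (27.9 beside 13.7 reads per kb). Just 58 of the 155 (37.4%) had a peak in both controls and 68 (43.9%) in neither, beside 73.7% and 16.9% elsewhere. Doxo alone listed 145 of the 155 (93.5%, beside 86.9% elsewhere). Over all listed regions the share for Doxo alone was 78.8% in the segment and 29.3% outside it. The median log2 fold with Doxo at pre-open regions was 2.13 in the segment and 2.20 elsewhere. K562 cells are aneuploid and carry extra copies of segments of chromosomes 9 and 22 around the BCR-ABL1 fusion. More DNA copies and more open chromatin per copy cannot be told apart in these read counts.

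**Figure D5:**
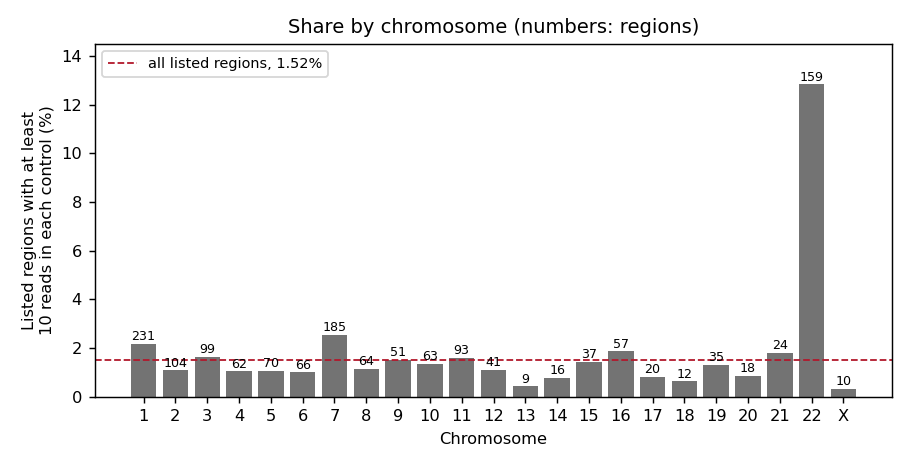
Share of listed regions (%) with at least 10 reads in each control, by chromosome, for chromosomes with over 100 listed regions. Numbers above the bars count these regions, and the dashed line marks the share over all listed regions, 1.52%. Chromosome 22 reaches 12.8%.

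Of 2564 windows of 1 Mb with at least 10 listed regions, 11 had a median of at least 4 reads in each control, and 5 of these were the windows of chromosome 22. The others, with medians of 4 to 7 reads, began at 1 and 51 Mb on chromosome 1, 47 Mb on chromosome 3, 128 and 150 Mb on chromosome 7 and 133 Mb on chromosome 9. The window at 133 Mb of chromosome 9 held 6 pre-open regions among 37 listed. Its most read region, at 133759475-133762596, picked with its values in view, had 173 and 89 control reads and 1341 and 1461 with Doxo (log2 fold 2.41). The next on that chromosome, at 134133603-134135626 and 134141093-134142605, had log2 folds of 1.89 and 1.84.

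Some pre-open regions lay in runs, though most stood alone. Joined where the gap was at most 10000 bp, 388 of them (25.4%) fell into 140 groups of at least 2, and 1139 had no such neighbour. Of the 12 groups with at least 5, 8 were on chromosome 22. The longest, at 23578258-23630423 of that chromosome, held 18 regions, all listed for Doxo alone, with log2 folds of 1.58 to 2.75 and no control peak at 10 of them. A run of 10 lay at 20123527-20138621, 9 of them for Doxo alone (1.95 to 3.23). Outside that chromosome, runs of 5 lay on chromosome 1 at 6558185-6569419, chromosome 9 at 133737651-133764234 and chromosome 7 at 157068750-157093613, and each region in them was listed for Doxo alone.

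The run on chromosome 7 at 149499636-149524273 differed from these. None of its 5 regions was listed for Doxo alone, and their log2 folds with Doxo were 2.48 to 2.96, from 13 to 36 reads in the first control and 12 to 29 in the second. Of the 666 windows of 1 Mb with a pre-open region, 382 held a single one.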

How the data were processed

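ATAC-seq values came from 1 deposited list of gained regions per drug. Regions were compared with DiffBind on GRCh37, per the submitters' processing notes, whereas for aligner, peak caller, normalization and tool versions the entry is: not given in the sources used here. Since the lists have no header, what each column holds was inferred from its values. The authors deposited, per region, log2 mean normalized reads and a log2 fold, a p-value with an FDR, peak calls, and a signal per library, which is a read count times 1 factor per library. Coordinates are as listed, and whether starts count from 0 or 1 is not stated.

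The signal of a library moves in equal steps, 1 per read. Division by that step gave reads, and 100% of them were whole to within 0.1. Control reads were the same in every list. Full library depth is unknown, and listed regions hold 3534855 to 7266289 reads per treated library and 120492 to 253175 per control library. Doxo and diMe-Doxo were compared with edgeR 4.0.16 (glmQLFit, R 4.3.3) on recovered reads, with the authors' factors put on 1 scale by the geometric mean of the control ratios, 1.67 and 1.46. On simulated data with 200 of 33140 regions changed 4-fold, 97.5% were found, with 6 false calls among 201. The simulation had few changes, balanced in direction, a common dispersion and known factors. It therefore does not give the rate of false calls in the real comparison. Acla, at another dose, was not tested. DESeq2 1.42.0, TMM and left-out libraries were alternatives. Tables used Python 3.11.15 and pandas 2.3.3.

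The regions and lists were chosen with earlier results of these data known. The rule for named regions took the 5 with most control reads, the 5 of all drugs with the highest smallest fold, the 3 with the lowest FDR in each class of 1 or 2 drugs, the 5 with the lowest adjusted p in each direction and the 3 widest. Gene lists and promoter shares were not analysed here, since the gene positions at hand belong to another build.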

Additional observations from a re-analysis of the deposited data

How the results depend on the processing

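The number of pre-open regions depended on what counts as open. In place of 1527 it was 3636 with at least 5 reads in each control, 536 with at least 20, 5645 with a peak called in both controls, 6614 to 6685 without 1 control library, and 825 at an FDR of at most 0.01 with a log2 fold of at least 2. It was 1372 without chromosome 22 at 19-24 Mb. Under the first 5 of these settings, in that order, the counts in the Doxo list were 3491, 535, 4962, 5931 to 6200 and 814 in place of 1513, those of diMe-Doxo 899, 16, 1870, 1530 to 2092 and 58 in place of 178, and those of Acla 645, 0, 1504, 1239 to 1798 and 25 in place of 97. The share listed for Doxo alone was 73.1%, 97.0%, 62.1%, 61.8% to 73.5% and 92.8%, in place of 87.6%, and 86.9% without the segment of chromosome 22.

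The median log2 fold moved by more than the SD between treated libraries at 5 reads for Doxo (2.39), with a peak in both controls (2.55, 2.19 and 2.17 for Doxo, diMe-Doxo and Acla), without 1 control library (2.65 to 2.66, 2.12 to 2.21 and 2.12 to 2.24) and at the stricter FDR and fold (2.64, 2.19 and 2.19).

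For Doxo against diMe-Doxo, calls higher with Doxo numbered 477 of 785 regions with at least 5 control reads and 14 of 15 with at least 20. Over the other settings they stayed within 81 to 123 of 168, beside 6493 to 10479 of all 33140 regions. With DESeq2 they were 90, beside 6493, and the median log2 difference was 0.51 at pre-open regions and -0.07 over all. Calls lower with Doxo were 12 with TMM, 6 with DESeq2, 0 with the scale of control library 1 and 0 to 1 without 1 library. Over all 33140 regions they were 3508, 1518, 577 and 158 to 815 in the same order. At the minimum of 5 and 20 reads, calls lower with Doxo were 12 and 0. A filter of 20 summed reads changed no call. No paired analysis was possible because the labels give 1 sample per group and no replicate numbers. Without 1 treated library, the median log2 fold was 2.12 to 2.25 for Doxo, 1.70 to 1.95 for diMe-Doxo and 1.79 to 1.85 for Acla. The settings without 1 control library changed the set of regions only, and their authors' folds still rest on both controls. Promoter windows and gene bodies were not run. The settings without a control library, those of the control scale and of chromosome 22, and the medians without a treated library were chosen after seeing the data. A control value of 10 to 19 reads lies behind 991 of the regions, so single folds carry counting error and a 2-fold difference between controls is common.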
